A study of Mus musculus with 11 samples.

Results

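Effector CD8+ T cells grown from naive precursors and left without a final stimulation were compared with effectors grown from central memory precursors and given that stimulation. The comparison took the 2 arrays titled naive (CD44-) and unstimulated and the 3 arrays titled memory (CD44+) and stimulated, 5 of the 11 arrays of the series, and covered every gene that has a probe set with a single symbol. These were 18193 genes, of which 14795 were tested. All cells were CD8+ T cells of pmel-1 mice, which carry a transgenic T cell receptor for a peptide of the melanocyte protein gp100. Selection for cells lacking CD44 gave the naive precursors and selection for cells bearing it the central memory precursors, and all groups share the transgene and the same culture: plate-bound antibodies to CD3 and CD28, then allogeneic feeder cells loaded with the gp100 peptide, over 2 weeks with interleukin 2 (10 cetus units). Naive-derived unstimulated cells received nothing further, and memory-derived stimulated cells received antibodies to CD3 and CD28 for 4 h. The other 6 arrays were 3 of naive-derived stimulated cells (the same 4 h treatment) and 3 of memory-derived unstimulated cells. The sources used here give no age of the mice and no number of mice per culture, and the arrays come from 3 independent experiments, the third of which had no naive-derived unstimulated array here.

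A naive CD8+ T cell has not met its antigen, whereas a central memory cell descends from cells that have and keeps some of their gene programme. Either cell, when stimulated through its receptor and CD28, divides and becomes an effector that makes interferon gamma, tumour necrosis factor, chemokines and cytotoxic granule proteins. Effectors can differ in transcription factors such as T-bet and Eomes, in inhibitory receptors such as PD-1, LAG-3 and CTLA-4, and in adhesion molecules that set which tissue they enter. Because the groups differ both in origin and in the final stimulation, a difference between them can belong to either. The values of the naive-derived stimulated and memory-derived unstimulated arrays are therefore given beside it. The crossed comparison (naive-derived stimulated minus memory-derived unstimulated) shares no array with the first, but both take each gene's spread from the same fit. A difference that goes with origin alone has the same sign in both. One that goes with the final stimulation alone, and alike in both origins, has opposite signs. For that stimulation 2 of 14795 genes passed in naive-derived cells and 4675 in memory-derived cells (limma, adjusted p below 0.05). A gene that follows the level of activation can therefore also have the same sign in both, so the sign does not separate origin from activation.

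On the first principal component of the 5 arrays, which held 47.4% of their variance, the 2 arrays of naive-derived unstimulated cells had scores of 23.8 and 28.9 and the 3 of memory-derived stimulated cells scores of -19.2, -17.2 and -16.3. The naive-derived unstimulated arrays were near the stimulated ones at activation genes, against their label. Il2 was at 12.18 and 11.04 there (log2 scale, as all levels here) and at 3.95, 4.96 and 2.32 on the memory-derived unstimulated arrays, and naive-derived arrays with and without the final stimulation differed at 2 of 14795 genes (0.0135%; 1252 at an unadjusted p below 0.05, limma). They are called unstimulated here as labelled. The 3' minus 5' difference of actin, a sign of RNA quality, was 0.478 and 0.462 (log10) against 0.431 to 0.520, so the groups overlapped. All 6 CD8 T cell markers measured lay above the level used as a floor for testing (1.54), and their summed level was 11.52 to 11.65 against 10.82 to 10.97. Of markers of other cells, Cd4, Ncr1, Cd79a, Ms4a1, S100a8 and S100a9 lay below that level on all 5 arrays, but other members of their lists did not. Foxp3, Zbtb7b, Ikzf2 and Zbtb16, 4 of the 6 markers listed with Cd4 and Ncr1, exceeded it on at least 1 of the 5 arrays. So did 5 of 8 B cell markers (Cd79b, Pax5, Cd22, Ebf1 and Jchain). In each of these 2 lists 5 members matched by symbol were tested, none of these passed by limma and 1 had an unadjusted p below 0.05. The first list also names the gamma chain segment Tcrg-V4, a symbol that was not matched. It is on the array as Trgv4, which passed by limma (1.52, adjusted p = 0.00392). Summed myeloid markers (11 of 14 above the level on at least 1 of the 5 arrays) were at 6.05 to 6.35 against 6.80 to 6.95, and class II genes (7 of 8) at 5.51 to 5.52 against 4.78 to 5.11. Of the 11 myeloid markers tested none passed by limma, 6 had a difference above 0 and the median was 0.02; the 3 at an unadjusted p below 0.05 were Cd14 (difference -1.30, adjusted p = 0.0571; 0.019 to 0.38 over the alternatives), Cd68 (-1.20, adjusted p = 0.054; 0.0125 with the replicate block, which pairs arrays by experiment, and 0.0125 to 0.422 over the alternatives) and Itgax (-1.08, adjusted p = 0.075; 0.0252 to 0.522 over the alternatives). In bulk RNA, fewer cells of a type and less RNA per cell cannot be told apart, and the part of such cells in the results was not tested.

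At an adjusted p below 0.05, 273 genes differed between naive-derived unstimulated and memory-derived stimulated cells, 1.85% of the 14795 tested: 145 were higher in the naive-derived cells (0.98%) and 128 lower (0.865%). Differences are naive-derived unstimulated minus memory-derived stimulated on the log2 scale throughout. Those of the 273 genes ranged in size from 0.61 to 5.43 with a median of 1.20, 178 were at least 2-fold and 38 at least 4-fold. None of the 273 had overlapping arrays, which was also true of 35.37% of all tested genes. Of the 14795 genes, 1791 had an unadjusted p below 0.05 by limma (800 higher, 991 lower) and 6862 had a difference above 0. The number of calls depended on single arrays: it was 110 and 92 without naive-derived unstimulated replicate 1 or 2, and 151, 144 and 172 without memory-derived stimulated replicate 1, 2 or 3. Each of the 273 kept its sign in all 11 cases that leave out 1 array, and 65 (43 higher, 22 lower) passed in all of them.

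In the crossed comparison on the other 6 arrays, where 39% of tested genes passed, 159 of the 273 genes passed with the same sign (77 higher and 82 lower in naive-derived cells), 40 passed with the opposite sign (25 and 15) and 74 did not pass (43 and 31). Regardless of p, 75.46% of the 273 had the same sign in the crossed comparison, against 50.33% of all tested genes. Of the 159 genes, 153 had no overlap between the 5 naive-derived and the 6 memory-derived arrays whatever the stimulation. The same held for 15 of the 74 and 0 of the 40. The 159 were selected by their differences on these same arrays, so this separation largely follows from the selection and adds no support. The share over all tested genes is not given here. Whether the difference between origins itself differed between the stimulation states was tested by the interaction, which 401 genes passed (2.71%). Without naive-derived unstimulated replicate 1 or 2, 67 and 56 genes passed with the same sign and 16 and 12 with opposite signs. Without memory-derived stimulated replicate 1, 2 or 3 these were 89, 92 and 101, and 17, 13 and 21, and without memory-derived unstimulated replicate 3 the genes with opposite signs were 75. Among the 159 are the integrin subunit gene Itgae, the inhibitory receptor genes Lag3 and Pdcd1, and, in the memory-derived direction, Eomes, Gzmk and Klrg1. Among the 40 are interferon-inducible GTPase genes on the higher side and Il1a and Cxcl2 on the lower side.

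**Figure D1:**
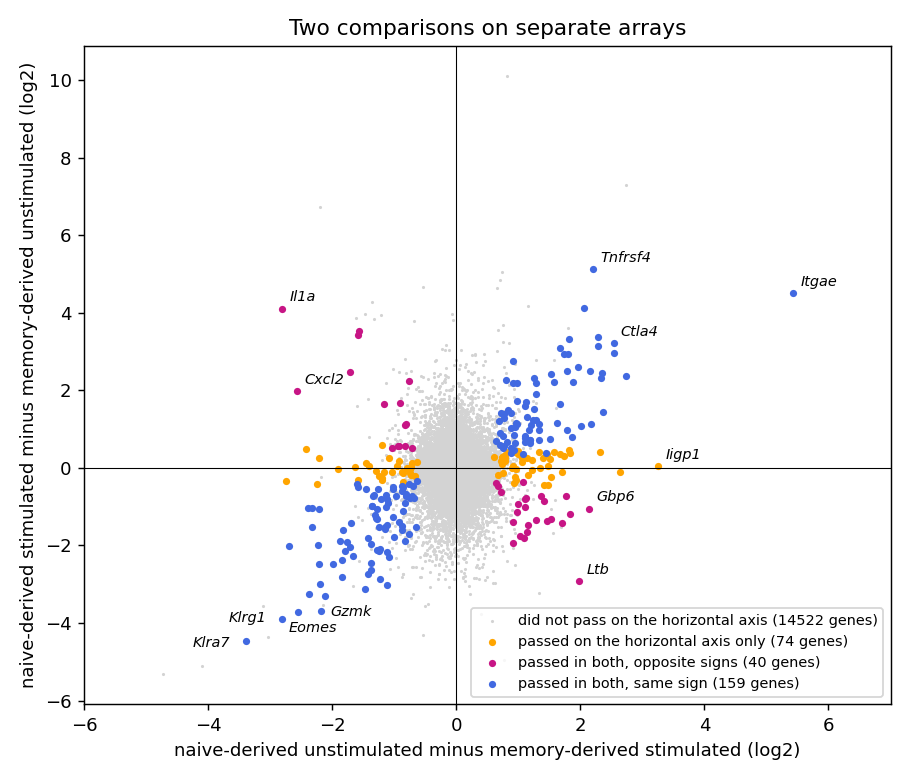
Each point is 1 of the 14795 tested genes. The horizontal axis is the log2 difference of naive-derived unstimulated minus memory-derived stimulated arrays and the vertical axis is naive-derived stimulated minus memory-derived unstimulated (log2, other arrays). Colours mark the 159 genes that passed in both with the same sign, the 40 with opposite signs and the 74 that passed on the horizontal axis only. Itgae lies farthest to the right at 5.43, and Il1a stands in the upper left at -2.81 and a fitted 4.11, the latter a bound of at least 3.72 because its memory-derived unstimulated arrays lay below the level used as a floor.

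Itgae showed the largest difference of all genes that passed. It encodes the alpha E integrin chain (CD103), which pairs with the beta 7 chain and binds E-cadherin on epithelium. Itgae was at 7.44 and 7.46 on the naive-derived unstimulated arrays and at 1.64, 2.15 and 2.28 on the memory-derived stimulated arrays. The difference was 5.43 ± 0.27 (SE; 43.0-fold, adjusted p = 8.03e-06), and the groups were far apart on every array. The naive-derived stimulated arrays lay at 7.25, 7.29 and 7.03 and the memory-derived unstimulated arrays at 2.26, 2.55 and 3.24, so Itgae followed the origin label in all 4 groups. Its partner Itgb7 was at 6.47 and 6.24 against 4.57, 4.91 and 4.55, a difference of 1.68 ± 0.25 (adjusted p = 0.00557; 0.072 without naive-derived unstimulated replicate 1). Unlike Itgae, Itgb7 did not pass in the crossed comparison (0.37, adjusted p = 0.216): the memory-derived unstimulated arrays were at 5.49, 5.62 and 6.41, near the naive-derived ones. Of 21 integrin and adhesion genes tested, these 2 were higher and Itgb1, the beta 1 chain, was lower (-1.16 ± 0.21, adjusted p = 0.0185). The other 18 did not pass, and the list's median difference was -0.09 against -0.02 over all tested genes. The Itgb1 call did not hold without naive-derived unstimulated replicate 1 or 2 (adjusted p = 0.106 and 0.169) or memory-derived stimulated replicate 2 or 3 (0.0576 and 0.0624), and the gene's 3 further probe sets did not pass (-0.53 to -0.24).

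Several inhibitory receptor genes were higher in the naive-derived cells. Of 13 inhibitory receptors and regulatory molecules tested, 5 passed, all higher, 9 had a difference above 0 and the list's median difference was 0.76. Lag3, a receptor that restrains T cells through class II molecules, was at 6.80 and 6.75 against 4.78, 4.97 and 4.92 (1.88 ± 0.16, adjusted p = 0.000287). Pdcd1, which encodes PD-1, was at 7.37 and 7.30 against 5.53, 5.49 and 5.79 (1.73 ± 0.21, adjusted p = 0.00146). For both genes all 5 naive-derived arrays lay above all 6 memory-derived arrays, with or without the final stimulation. Ctla4, which competes with CD28 for its ligands, was at 7.92 and 7.71 against 5.61, 5.12 and 5.12 (2.53 ± 0.43, adjusted p = 0.0134). Cd160, a receptor of the same ligand as BTLA, was at 9.64 and 9.43 against 8.05, 8.21 and 8.50 (1.29 ± 0.18, adjusted p = 0.00381). Btla was at 3.12 and 3.74 against 1.72, 1.67 and 1.04, the last of these below the 1.54 level (1.96 ± 0.36, adjusted p = 0.0182). All 5 genes passed with the same sign in the crossed comparison, at 2.21 for Lag3, 2.94 for Pdcd1, 3.23 for Ctla4, 1.90 for Cd160 and 2.59 for Btla. The calls for Lag3 and Pdcd1 held whichever array was left out. Without naive-derived unstimulated replicate 1 the adjusted p was 0.112 for Ctla4, 0.0576 for Cd160 and 0.058 for Btla. Without replicate 2 it was 0.096 for Ctla4 and 0.203 for Btla, and without memory-derived stimulated replicate 2 it was 0.0509 for Ctla4 and without replicate 3 0.0661 for Btla, so that 2 and 3 of the 13 passed without naive-derived unstimulated replicate 1 or 2. Of Cd160's 3 further probe sets 1 passed (1.68) and 2 did not (0.94 and -0.08). The 8 members that did not pass include Havcr2, which encodes TIM-3 (-0.08, adjusted p = 0.957), Fgl2 (0.77, adjusted p = 0.303) and, on the lower side, Cd5 (-0.68, adjusted p = 0.467) and Entpd1, which encodes the ectonucleotidase CD39 (-0.61, adjusted p = 0.152).

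Among costimulatory molecules and activation markers, 3 of 21 tested passed, all higher, while the list's median was -0.08. Tnfrsf4, which encodes the costimulatory receptor OX40, was at 9.32 and 9.39 against 7.04, 7.27 and 7.15 (2.20 ± 0.29, adjusted p = 0.00259). Cd200, whose product engages an inhibitory receptor on other cells, was at 4.10 and 4.42 against 2.20, 2.07 and 1.64 (2.29 ± 0.27, adjusted p = 0.00133). Cd86, a ligand of CD28 and CTLA-4, differed by 1.68 ± 0.25 (adjusted p = 0.00557; 0.054 and 0.0704 without naive-derived unstimulated replicate 1 or 2), and a second probe set did not pass (0.88). In Tnfrsf4 the 4 groups were ordered naive-derived stimulated (9.71 to 9.98), naive-derived unstimulated, memory-derived stimulated and memory-derived unstimulated (3.93 to 5.12), with no overlap between neighbours. Of 19 BCL2 family, caspase and death receptor genes, 3 passed, all higher, with a list median of 0.23. Casp1, the protease that matures interleukin 1 beta, was at 4.52 and 4.84 against 2.92, 2.85 and 2.94 (1.78 ± 0.16, adjusted p = 0.000318). Casp4, a sensor of bacterial lipopolysaccharide in the cytosol, was at 6.13 and 6.28 against 4.32, 4.33 and 4.51 (1.81 ± 0.20, adjusted p = 0.000908). Both inflammatory caspases were higher on all 5 naive-derived arrays than on any of the 6 memory-derived arrays. Fasl, the death ligand, differed by 0.64 ± 0.13 (adjusted p = 0.0288), and its call was lost without each of the 5 arrays compared (adjusted p = 0.0796 to 0.252) and with the replicate block (0.0679).

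Asb2, a substrate receptor of a ubiquitin ligase, was at 5.15 and 4.69 against 2.25, 2.10 and 2.49 (2.64 ± 0.39, adjusted p = 0.00557; 0.0727 without naive-derived unstimulated replicate 1). It did not pass in the crossed comparison (-0.10, adjusted p = 0.857), where naive-derived stimulated arrays were at 2.78 to 4.21 and memory-derived unstimulated arrays at 3.48 to 4.23. Further genes that were among the largest differences or the lowest p-values are less often used to describe T cells. Ifi27l2a, an interferon-inducible gene, was at 7.77 and 7.57 against 5.04, 5.32 and 4.43 (2.74 ± 0.28, adjusted p = 0.000603). Enah, a regulator of actin filament growth, was at 4.04 and 4.02 against 1.65, 1.14 and 1.64 (2.55 ± 0.27, adjusted p = 0.000763), the second of these below the 1.54 level. Trib2, a pseudokinase, was at 4.10 and 3.78 against 1.55, 1.49 and 1.80 (2.33 ± 0.21, adjusted p = 0.000318), and its 1.49 also lay below that level. In all 3 genes the naive-derived stimulated arrays lay beside the naive-derived unstimulated ones and the memory-derived unstimulated arrays beside the memory-derived stimulated ones. The same order of origins was seen in Ahr, the aryl hydrocarbon receptor (2.28 ± 0.32, adjusted p = 0.00392), Abca3, a lipid transporter (2.35 ± 0.30, adjusted p = 0.00207), and Ncf1, a subunit of the phagocyte oxidase (2.01 ± 0.18, adjusted p = 0.000318). On the memory-derived stimulated arrays Abca3 was at 0.995, 1.01 and 1.79, the first 2 of these below the 1.54 level. Cnn3, an actin-binding calponin (1.80 ± 0.16, adjusted p = 0.000318), and Prelid2, a PRELI domain gene (1.52 ± 0.13, adjusted p = 0.000254), also had the same sign in the crossed comparison. There Prelid2 differed by 2.43 and Cnn3 by at least 2.77, since it lay below the 1.54 level on all memory-derived unstimulated arrays. Il12rb1, a receptor chain for interleukins 12 and 23, was at 5.25 and 5.20 against 3.66, 3.79 and 3.91 (1.44 ± 0.14, adjusted p = 0.000439), with a smaller crossed difference of 0.39. Ccn3, a matricellular protein, was at 4.33 and 4.44 against 1.76, 2.37 and 1.94 (2.37 ± 0.36, adjusted p = 0.0073; 0.058 and 0.0819 without naive-derived unstimulated replicate 1 or 2) and passed in the crossed comparison too (1.45). The call for Ahr did not hold without naive-derived unstimulated replicate 2 (adjusted p = 0.0636). Further probe sets did not pass for Trib2 (0.99), Ahr (1.06), Enah (0.52 and 0.20), Cnn3 (0.74 and 0.67), Prelid2 (0.47) and Abca3 (-0.36), while others passed for Enah (1.17 and 1.03), Cnn3 (1.41 to 1.72) and Abca3 (1.5).

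Genes that were lower in the naive-derived cells included NK-type receptor genes, Eomes and a granzyme gene. Eomes encodes a T-box transcription factor that effector and memory CD8+ cells use. It was at 4.95 and 4.81 against 7.65, 7.33 and 7.33 (-2.56 ± 0.31, adjusted p = 0.00158). The related Tbx21, which encodes T-bet, was at 7.25 and 6.92 against 6.68, 6.60 and 6.63 and did not pass (0.45 ± 0.15, adjusted p = 0.23). So 1 of these 2 T-box genes passed. Gzmk, a granzyme gene, was at 4.25 and 3.94 against 6.41, 6.22 and 6.21 (-2.18 ± 0.20, adjusted p = 0.000318). Klrg1, an inhibitory lectin found on much-divided effectors, was at 2.53 and 2.86 against 5.21, 5.22 and 6.08 (-2.80 ± 0.40, adjusted p = 0.00449; 0.058 without naive-derived unstimulated replicate 1). In Eomes, Gzmk and Klrg1 every memory-derived array lay above every naive-derived array, and the crossed differences were -3.71, -3.68 and -3.89.

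Of 13 NK-type lectins and killer receptors tested, 3 passed, all lower in the naive-derived cells, with a list median of -0.27. Besides Klrg1 these were Klra7, a member of the Ly49 family, and Klre1. Klra7 was at 0.61 and 2.12 against 5.27, 5.02 and 3.96 (-3.38 ± 0.68, adjusted p = 0.0299), with the first naive-derived array below the 1.54 level. Klre1 was at 2.58 and 2.87 against 5.05, 4.54 and 4.13 (-1.84 ± 0.32, adjusted p = 0.0139). Klra7 belongs to a family of near-identical genes whose probes can bind more than 1 transcript, so which member was measured is uncertain. The number that passed was 0 and 1 without naive-derived unstimulated replicate 1 or 2 and 5 with the replicate block. The adjusted p of Klra7 without those arrays was 0.256 and 0.0668, and 0.105 and 0.0984 without memory-derived stimulated replicate 1 or 2, and that of Klre1 was 0.127 and 0.0819. Other members went the other way without passing, among them Klrk1, which encodes NKG2D (1.13, adjusted p = 0.136), and Klrd1 overlapped (0.40, adjusted p = 0.781).

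Further lower genes were named mostly for the size or the adjusted p of their difference. Mpp7, a scaffold protein of cell junctions, had the lowest adjusted p among lower genes: it was at 2.44 and 2.41 against 4.78, 4.81 and 4.66 (-2.33 ± 0.14, adjusted p = 2.6e-05). Myo6, an unconventional myosin, was at 2.49 and 2.0 against 4.49, 4.62 and 4.59 (-2.32 ± 0.17, adjusted p = 0.000102). Dsg2, a desmosomal cadherin, was at 2.13 and 1.90 against 4.03, 4.38 and 4.27 (-2.21 ± 0.21, adjusted p = 0.000429). All 3 had low levels on the 5 naive-derived arrays, which lay below the 6 memory-derived arrays. Mpp7 and Myo6 were higher on memory-derived arrays with the final stimulation than without it (3.15, 3.23 and 2.95 for Mpp7 without it), whereas Dsg2 was not (4.25, 4.42 and 4.69). Serpinb9b, a serpin gene with near-identical neighbours, was at 3.53 and 3.02 against 6.13, 6.02 and 5.80 (-2.71 ± 0.35, adjusted p = 0.00229). Anxa3, a calcium-dependent phospholipid-binding annexin (-1.69 ± 0.16, adjusted p = 0.000318), and Mgat5, a glycosyltransferase that branches N-glycans (-1.76 ± 0.16, adjusted p = 0.000334), passed with the same sign in the crossed comparison. Anxa2 was at 9.03 and 8.80 against 10.51, 10.61 and 10.40 (-1.60 ± 0.16, adjusted p = 0.000549), but a second, dimmer probe set did not pass (-0.13, adjusted p = 0.923). Kcnk10, a potassium channel, was at 1.05 and 1.82 against 3.27, 3.79 and 4.41 (-2.39 ± 0.37, adjusted p = 0.0085; 0.0993 without naive-derived unstimulated replicate 1), with the first naive-derived array below the 1.54 level and a further probe set that did not pass (-0.22). Gm36723 passed at -2.38 ± 0.29 (adjusted p = 0.00161). Pfpl, a perforin-like gene, lay below the 1.54 level on both naive-derived arrays, so its difference is a bound: it was lower by at least 2.15 (adjusted p = 0.000108), against 3.60, 3.82 and 3.64 on the memory-derived stimulated arrays. Pfpl was at 1.40 to 1.76 on memory-derived unstimulated arrays, and naive-derived stimulated arrays reached 1.55 at most, so that it was high in the memory-derived stimulated group alone of the 4. Further probe sets did not pass for Dsg2 (-0.52 and 0.13), Myo6 (-0.34), Mgat5 (-0.43) and Pfpl (-1.46), while others passed for Dsg2 (-1.63 and -1.05), Myo6 (-1.33), Mgat5 (-1.18) and Pfpl (-1.33).

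**Figure D2:**
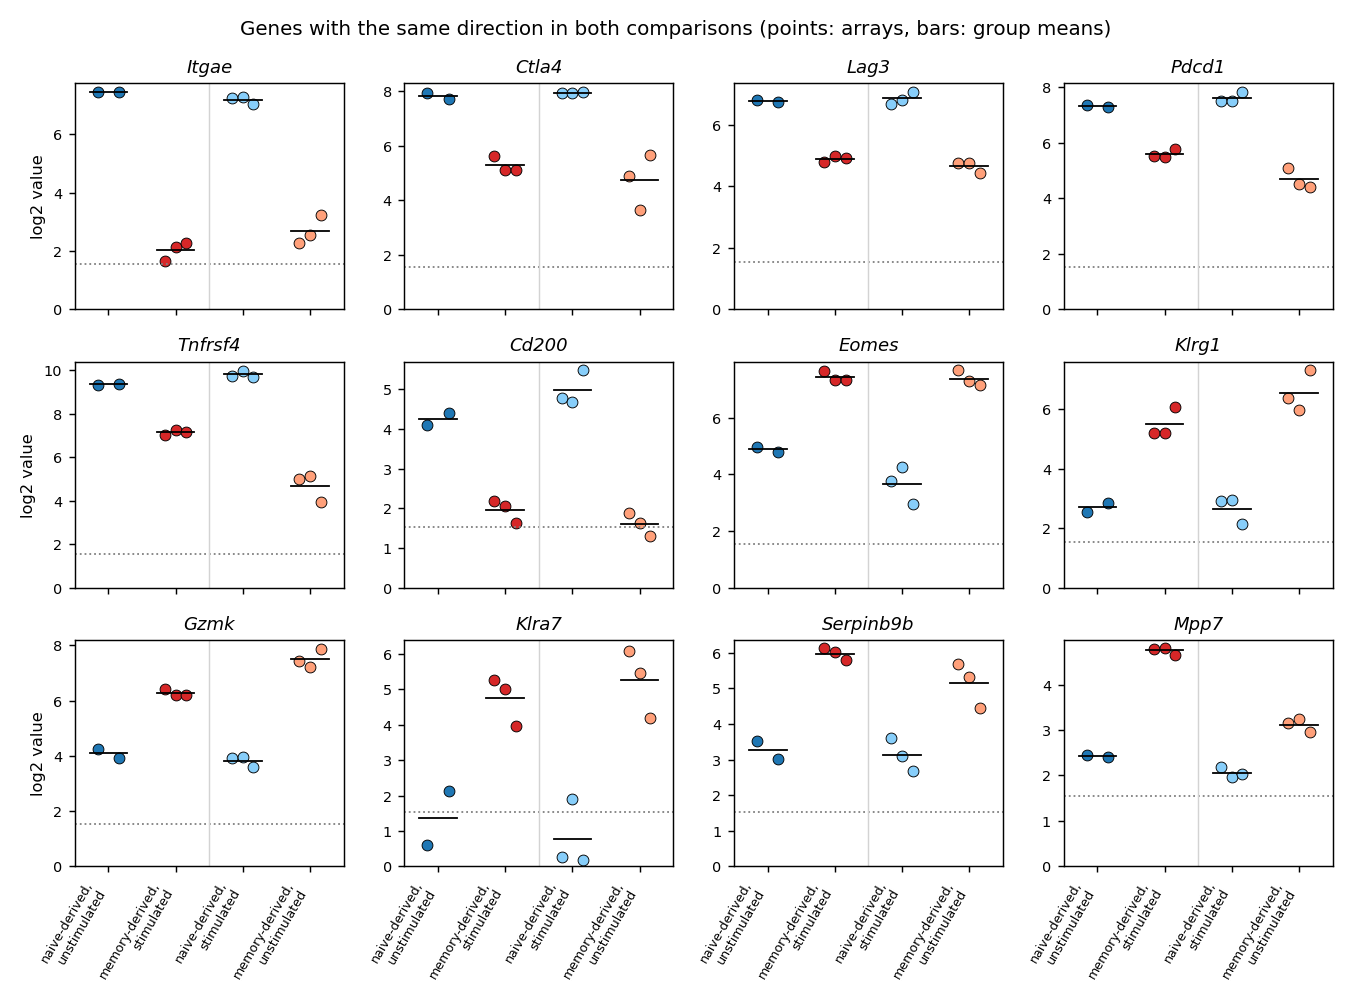
Log2 values of 12 genes on each array, with points for arrays and bars for group means; the dotted line is the 1.54 level and the vertical line separates the compared groups from the other 2. In every panel the naive-derived groups stand on one side of the memory-derived groups, for example Itgae at 7.03 to 7.46 against 1.64 to 3.24.

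Several interferon-inducible genes were higher in the naive-derived unstimulated cells. Of 25 type I interferon response genes tested, 7 passed, all higher (Gbp2, Zbp1, Isg20, Rtp4, Ifih1, Oas1a and Bst2), 23 had a difference above 0 and the median was 0.63. The mean level of the list's 27 genes on the array, tested or not, was 3.93 and 3.88 against 3.29, 3.16 and 3.22. It was 3.65 to 3.74 on naive-derived stimulated and 3.88 to 4.12 on memory-derived unstimulated arrays. The memory-derived stimulated group was thus the lowest of the 4. Interferon-inducible GTPases mostly moved in the same direction. They include the immunity-related GTPases and guanylate-binding proteins, which attack the membranes around intracellular microbes. The list, put together after the values were seen, is not confined to these families: it also named Gvin1 and Mx2, which were not tested. Of 11 tested, 8 passed, all higher, 10 had a difference above 0 and the median was 1.70. The mean level of the 12 genes of this list on the array was 5.07 and 5.12 against 3.65, 3.63 and 3.77, with 4.45 to 4.66 and 5.34 to 5.85 in the groups not compared. The members are near-identical in part, so single members are uncertain.

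Iigp1 had the largest difference of these GTPase genes. It was at 5.76 and 6.20 against 2.65, 2.72 and 2.79 (3.26 ± 0.29, adjusted p = 0.000318). Gbp2 was at 7.01 and 6.99 against 4.45, 4.71 and 4.90 (2.31 ± 0.23, adjusted p = 0.000549). Gbp6 was at 5.51 on both arrays against 3.49, 3.26 and 3.38 (2.13 ± 0.15, adjusted p = 9.36e-05). Every memory-derived stimulated array lay below the arrays of the other 3 groups in these 3 genes. Igtp (1.84 ± 0.19, adjusted p = 0.000584), Irgm1 (1.77 ± 0.20, adjusted p = 0.00117) and Ifi47 (1.70 ± 0.21, adjusted p = 0.00161) passed too, as did Irgm2 (1.45) and Gbp7 (1.15). The last 2 calls were lost without either naive-derived unstimulated array (adjusted p = 0.0914 and 0.151 for Irgm2, 0.142 and 0.142 for Gbp7) and without memory-derived stimulated replicate 1 or 2 (0.0516 and 0.0509, 0.0686 and 0.0823), for Irgm2 also without replicate 3 (0.0579). In the crossed comparison Gbp6 (-1.05), Igtp (-1.18), Irgm1 (-0.73), Irgm2 (-1.37), Ifi47 (-1.43) and Gbp7 (-1.47) passed with the opposite sign, whereas Gbp2 (0.40) and Iigp1 (0.05) did not pass. On memory-derived stimulated arrays Gbp6 was lower than on memory-derived unstimulated arrays by 2.52, Igtp by 2.25 and Ifi47 by 2.64, the 2 groups of that comparison sharing the stimulated arrays with the first.

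The promoters of these GTPase genes are shown because the members moved together. They come from RefSeq (GRCm38.p6), span 250 bases before to 50 bases after the gene's start on the gene's strand, and are shown for 4 genes, 3 of which hold an interferon-stimulated response element. Capitals mark that element, searched on both strands as GAAA, any 2 bases and GAAA. Gbp2 is at chr3:142620413-142620712 on the plus strand, Igtp at chr11:58199306-58199605 on the plus strand, Irgm1 at chr11:48871371-48871670 on the minus strand and Ifi47 at chr11:49076337-49076636 on the plus strand.
Gbp2: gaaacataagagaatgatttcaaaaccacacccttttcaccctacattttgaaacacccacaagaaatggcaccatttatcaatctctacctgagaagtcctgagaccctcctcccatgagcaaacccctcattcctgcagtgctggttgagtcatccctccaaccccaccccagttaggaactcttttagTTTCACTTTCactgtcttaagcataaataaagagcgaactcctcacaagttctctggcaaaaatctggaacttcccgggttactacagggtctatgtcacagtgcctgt
Igtp: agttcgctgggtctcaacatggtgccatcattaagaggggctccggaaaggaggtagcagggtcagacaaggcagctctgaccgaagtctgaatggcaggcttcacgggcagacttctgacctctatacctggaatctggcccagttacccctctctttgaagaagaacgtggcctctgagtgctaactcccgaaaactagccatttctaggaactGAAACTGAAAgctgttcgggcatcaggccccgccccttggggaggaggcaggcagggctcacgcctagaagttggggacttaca
Irgm1: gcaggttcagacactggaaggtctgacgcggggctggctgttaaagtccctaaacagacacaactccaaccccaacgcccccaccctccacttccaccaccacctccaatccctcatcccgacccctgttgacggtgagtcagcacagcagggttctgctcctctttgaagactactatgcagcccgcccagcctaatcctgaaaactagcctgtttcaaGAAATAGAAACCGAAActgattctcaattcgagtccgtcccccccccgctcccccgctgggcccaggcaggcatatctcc
Ifi47: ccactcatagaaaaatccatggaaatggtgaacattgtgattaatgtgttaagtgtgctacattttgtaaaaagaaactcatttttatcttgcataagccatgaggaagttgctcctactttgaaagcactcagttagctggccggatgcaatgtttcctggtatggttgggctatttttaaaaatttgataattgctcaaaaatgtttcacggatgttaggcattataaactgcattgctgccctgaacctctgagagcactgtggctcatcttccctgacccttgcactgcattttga
In the Gbp2 promoter the match starts at base 192 of 300 and reads on the opposite strand, in Igtp it starts at base 217, and in Irgm1 2 overlapping matches start at bases 221 and 227. The Ifi47 window holds none. Of the GTPase genes tested, 7 have promoters in the table (8 promoters), and 6 of the 8 hold the element. It was found in 455 of 15044 promoters of tested genes (3.02%), in 19 of 152 promoters of the genes that were higher (12.5%) and in 2 of 114 promoters of those that were lower (1.75%). The gamma-activated sequence, searched as TTCNNNGAA, which reads the same on both strands, was in 6.99% of all promoters, 9.21% of the higher and 7.02% of the lower. Among the 4 shown it was in Igtp, once, starting at base 206 and not overlapping the other element. Of the further motifs searched on both strands, AP-1 (TGANTCA) was in 5.93% of all promoters, 8.55% of the higher and 9.65% of the lower. NFAT (TGGAAA) was in 17.5%, 18.4% and 22.8%, NF-kappaB (GGGNN followed by TTNCC) in 5.36%, 6.58% and 7.89%, and ETS (CCGGAAG) in 14.9%, 9.87% and 5.26%. The E-box (CACGTG) was in 9.13%, 7.89% and 2.63%, the T-box (AGGTGTGA) in 1.02%, 0% and 0.877%, and the cyclic AMP element (TGACGTCA) in 2.73%, 0.658% and 1.75%. Of the 8 GTPase promoters, 3 held the gamma-activated sequence (37.5%), 4 the NFAT motif (50%), 2 the AP-1 motif (25%) and 0 any of the other motifs. Promoters were matched for 204 of the 273 genes, and a match describes letters in the window and not a bound site.

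Some class I antigen loading genes were also higher. Of 14 genes of class I loading and the immunoproteasome, 4 passed, all 14 had a difference above 0, and the median was 0.45. Tap1, a subunit of the peptide transporter, was at 6.50 and 6.54 against 4.86, 4.94 and 5.35 (1.47 ± 0.28, adjusted p = 0.0212). Psmb10, a catalytic subunit of the immunoproteasome, was at 7.03 and 6.94 against 5.79, 5.92 and 5.87 (1.12 ± 0.15, adjusted p = 0.00258). Psmb9, another such subunit (1.11 ± 0.19, adjusted p = 0.0125), and Tapbp, which bridges the transporter and class I molecules (0.95 ± 0.15, adjusted p = 0.00966), passed, while the class I chains H2-K1 (0.26) and H2-D1 (0.04) did not. Without naive-derived unstimulated replicate 1 or 2, 1 of the 14 passed, and without memory-derived stimulated replicate 2 it was 2. The Psmb10 call held in each case. Leaving out naive-derived unstimulated replicate 1 or 2 gave an adjusted p of 0.128 and 0.161 for Tap1, 0.058 and 0.147 for Psmb9 and 0.0796 and 0.101 for Tapbp. Without memory-derived stimulated replicate 2 Tap1 had 0.0796 and Psmb9 0.0509, and without replicate 1 Tap1 had 0.0801. Second probe sets of Tap1 (0.52, adjusted p = 0.509) and Tapbp (0.82, adjusted p = 0.0531) did not pass.

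Zbp1, Isg20 and Rtp4, from the type I interferon list, shared with Gbp2 the lowest place of the memory-derived stimulated group. Zbp1, a sensor of nucleic acids in Z form, was at 5.05 and 5.02 against 3.39, 3.23 and 3.29 (1.73 ± 0.13, adjusted p = 0.000154). Isg20, an exonuclease, was at 6.51 and 6.66 against 5.16, 5.22 and 5.34 (1.34 ± 0.15, adjusted p = 0.00121). Rtp4, a chaperone of receptor transport, was at 4.13 and 4.14 against 2.75, 2.62 and 2.45 (1.52 ± 0.18, adjusted p = 0.00121; 0.104 with the mean of its probe sets). In the crossed comparison Rtp4 passed with the opposite sign (-1.32). Ifih1, which encodes the RNA sensor MDA5 (1.25 ± 0.16, adjusted p = 0.00229), and Oas1a, an oligoadenylate synthetase (1.23 ± 0.18, adjusted p = 0.0048), passed here and had the same sign in the crossed comparison (1.53 and 1.24). The Oas1a call was lost without naive-derived unstimulated replicate 1 or 2 (adjusted p = 0.058 and 0.055). Irf1, a transcription factor for interferon-inducible genes, was at 5.09 and 5.30 against 4.25, 4.15 and 4.22 and did not pass (0.99 ± 0.22, adjusted p = 0.0521). Bst2, which encodes tetherin (0.63 ± 0.14, adjusted p = 0.0432), lost its call in 9 of the 11 single-array omissions (adjusted p up to 0.387) and with the replicate block (0.0762).

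**Figure D3:**
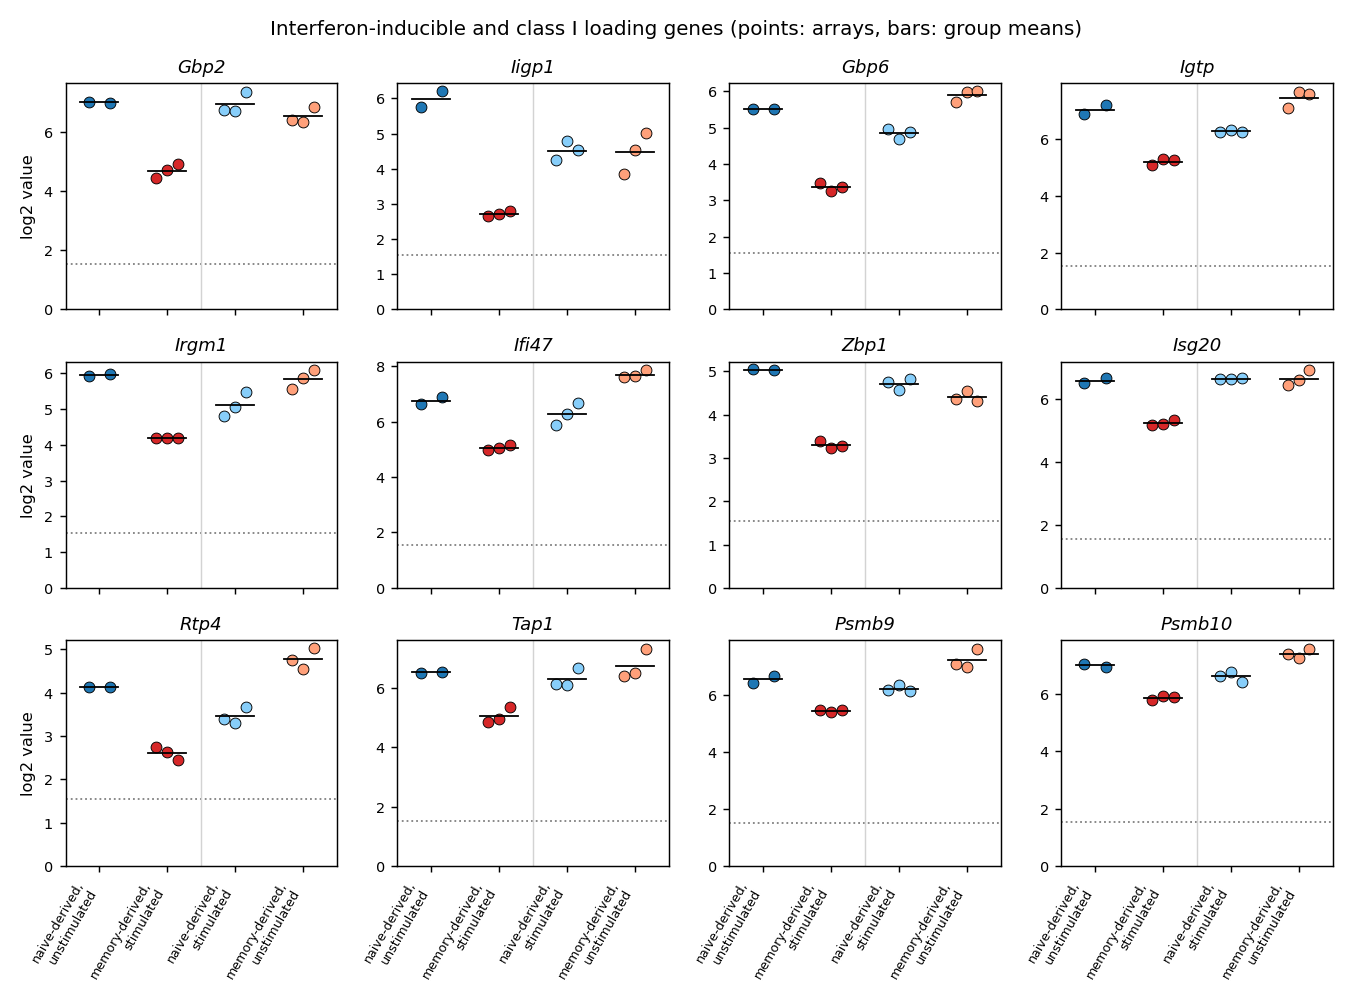
Log2 values of 12 interferon-inducible and class I loading genes on each array, with points for arrays, bars for group means and the 1.54 level dotted. The memory-derived stimulated arrays are the lowest group in every panel, for example Gbp6 at 3.26 to 3.49 against 4.69 to 6.0 on the other arrays.

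Few cytokine genes differed. Of 21 cytokine genes tested 2 were higher (Ltb and Fasl) and 2 lower (Il1a and Il6), with a median of 0.11, and of 10 chemokine genes made by T cells none passed by limma (1 had an unadjusted p below 0.05). Il1a, which encodes interleukin 1 alpha, was at 3.82 and 3.33 against 6.04, 6.47 and 6.63 (-2.81 ± 0.29, adjusted p = 0.000699). Cxcl2, a chemokine that attracts neutrophils and is not in that list, was at 1.93 and 1.66 against 4.44, 4.21 and 4.44 (-2.56 ± 0.22, adjusted p = 0.000303). For both genes the naive-derived unstimulated arrays lay between the memory-derived unstimulated arrays (0.87 to 1.40 for Il1a, 1.15 to 1.30 for Cxcl2, all below the 1.54 level) and the naive-derived stimulated arrays (4.89 to 5.84 and 2.86 to 3.71). Ier3, an early response gene that NF-kappaB induces, was at 7.0 and 6.35 against 9.26, 8.90 and 9.16 (-2.43 ± 0.35, adjusted p = 0.00513; 0.0819 without naive-derived unstimulated replicate 2). Its levels on naive-derived stimulated (6.47 to 7.28) and memory-derived unstimulated arrays (5.69 to 6.90) overlapped the naive-derived unstimulated ones, so that the memory-derived stimulated group stood alone. Il6 (-1.71 ± 0.35, adjusted p = 0.0331) and Nfkbid, an atypical inhibitor of NF-kappaB (-1.57 ± 0.33, adjusted p = 0.0382), were lower as well, but the adjusted p rose to 0.31 and 0.354 without naive-derived unstimulated replicate 2, and 4 and 6 of the other single-array omissions also ended these calls (0.0519 to 0.115 and 0.0544 to 0.118), as did the replicate block for Nfkbid (0.0764). In the other direction Ltb, which encodes lymphotoxin beta, was at 7.19 and 7.98 against 5.35, 5.61 and 5.86 (1.98 ± 0.30, adjusted p = 0.00676; 0.0953 without naive-derived unstimulated replicate 2) and at 9.51 to 9.55 on the memory-derived unstimulated arrays.

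The main effector cytokines did not pass. Il2 was at 12.18 and 11.04 against 10.11, 10.76 and 11.50, and the groups overlapped (0.82, 95% interval -0.86 to 2.50, adjusted p = 0.763). Ifng was at 13.10 and 13.21 against 12.73, 12.22 and 12.22 (0.77, interval -1.33 to 2.86, adjusted p = 0.841). Tnf was at 9.06 and 7.93 against 9.51, 9.83 and 10.23 (-1.36, interval -2.22 to -0.51, adjusted p = 0.134). Tnf and Ifng did not overlap, in opposite directions, and the intervals allow differences of over 2-fold for each of the 3 genes. Csf2 (-1.22, interval -3.22 to 0.78, adjusted p = 0.681) and Il3 (-2.20, adjusted p = 0.371) also did not pass, and their spread came largely from memory-derived unstimulated replicate 3, which the model includes: without it the adjusted p was 0.0386 and 0.00229. Il10, which encodes an anti-inflammatory cytokine, was at 9.39 and 7.99 against 6.35, 5.72 and 5.80 and narrowly did not pass (2.73 ± 0.63, adjusted p = 0.0571; 0.0346 with the replicate block). It passed in 7 of the 21 alternatives, the replicate block among them, and not in the rest. Ccl3 (0.32, adjusted p = 0.951) and Ccl4 (0.44, adjusted p = 0.863), chemokines that effector CD8+ cells release, differed by less than 1 SE, though the arrays compared did not overlap. The SE of Ccl3, Ccl4 and Ifng also includes memory-derived unstimulated replicate 3, at 7.94, 7.94 and 8.16. Replicates 1 and 2 of that group were at 12.32 and 12.82 for Ccl3, 10.18 and 10.62 for Ccl4 and 12.55 and 11.99 for Ifng. Leaving replicate 3 out did not bring a call for these genes.

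**Figure D4:**
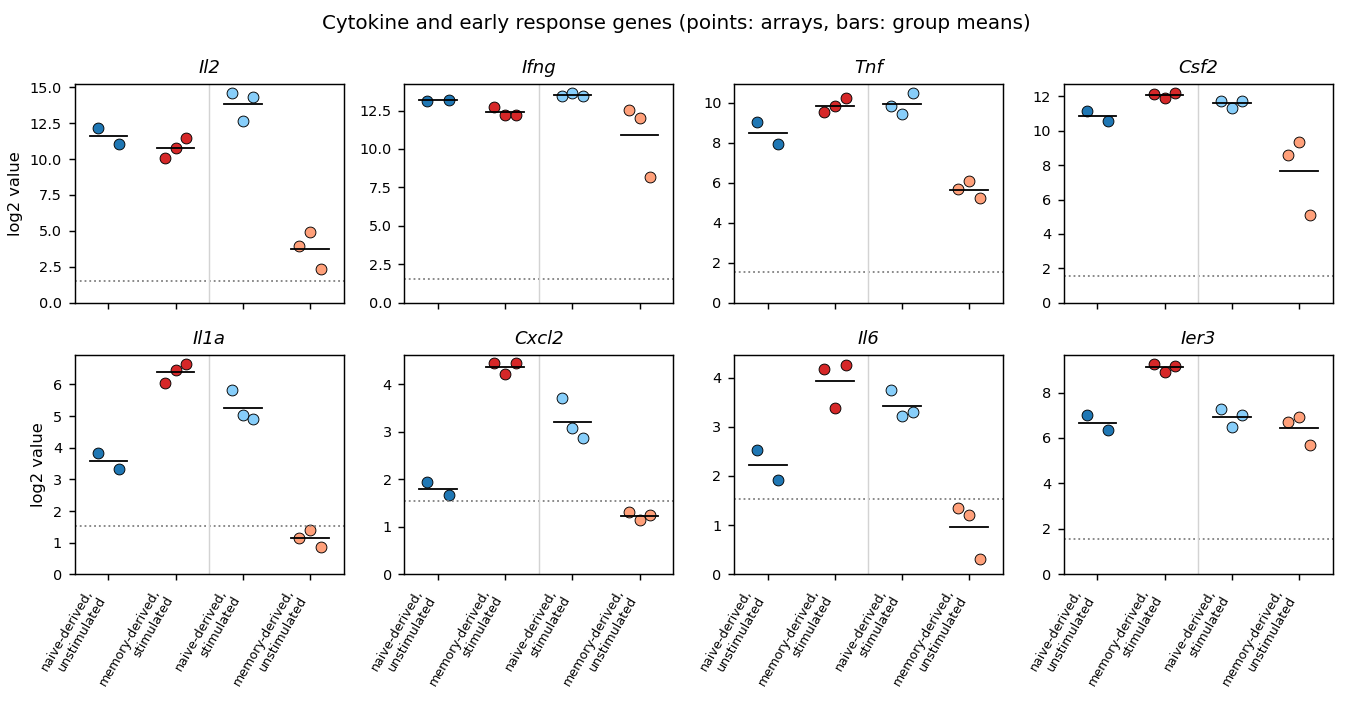
Log2 values of 8 cytokine and early response genes on each array, with points for arrays, bars for group means and the 1.54 level dotted. Il2 overlaps between the 2 compared groups (11.04 to 12.18 against 10.11 to 11.50), while Il1a, Cxcl2, Il6 and Ier3 are higher on every memory-derived stimulated array than on both naive-derived unstimulated arrays.

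The pair of groups was chosen because their activation genes looked alike in these data, so what follows describes that choice and supports nothing. The mean level of 21 activation markers was 6.99 and 6.84 against 6.61, 6.70 and 6.78, and that of 33 immediate early genes was 7.02 and 6.68 against 6.89, 6.90 and 7.04. On the memory-derived unstimulated arrays these were 4.90 to 5.79 and 5.51 to 6.27. Cd69 (0.41, interval -0.36 to 1.18) and Il2ra (-0.08, interval -0.90 to 0.73), both induced by receptor signals, did not pass. Of the 33 immediate early genes 1 was higher (Batf, a partner of AP-1 proteins, 0.73) and 2 were lower (Ier3 and the receptor kinase brake Spry2, -1.20). The Batf call was lost without either naive-derived unstimulated array (adjusted p = 0.214 and 0.15) or memory-derived stimulated replicate 2 or 3 (0.123 and 0.107), and that of Spry2 in 8 of the 11 single-array omissions (0.054 to 0.384). All 30 ribosome biogenesis genes tested missed the threshold by limma (1 had an unadjusted p below 0.05), with a median of 0.02. Their mean level was 7.31 and 7.37 against 7.32, 7.39 and 7.37.

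Genes of cell division leaned one way without passing. Of 29 mitosis genes all had a difference above 0, with a median of 0.41, and of 30 replication genes 29 did, with a median of 0.31. None of either list passed by limma, and 8 and 7 of them had an unadjusted p below 0.05. Over all 14795 tested genes, 6862 had a difference above 0 and 1791 had an unadjusted p below 0.05 (800 higher, 991 lower). The mean level of the mitosis genes was 5.23 and 5.43 against 5.03, 4.82 and 4.86, with 5.67 to 6.49 on the memory-derived unstimulated arrays and, given the final stimulation, 4.74 to 5.33 on the naive-derived ones. Ki-67's gene Mki67 was at 6.26 and 6.59 against 5.99, 5.61 and 5.97 (0.57, adjusted p = 0.543). In the ATF4 amino acid response, 12 of 23 genes had an unadjusted p below 0.05, all lower, and 1 passed after adjustment: Slc7a11, the cystine transporter (-0.81 ± 0.15, adjusted p = 0.0179). Its call was lost without each of the 5 arrays compared (adjusted p = 0.0592 to 0.175), and the list's median was -0.32. Asns, asparagine synthetase, was at 7.98 and 7.81 against 8.35, 8.62 and 8.68 (-0.65, adjusted p = 0.134).

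Several granzyme genes had differences among the largest of all and did not pass, and the naive-derived arrays differed from each other at them. Gzmg was at 6.85 and 3.79 against 9.29, 9.39 and 11.48 (-4.74 ± 1.18, adjusted p = 0.0798). Gzmd was at 9.61 and 6.86 against 11.85, 12.15 and 12.98 (-4.10 ± 1.01, adjusted p = 0.0756). Gzme (-3.03 ± 0.71, adjusted p = 0.0619) and Gzmf (-3.12 ± 0.95, adjusted p = 0.164) had the same order. In all 4 the second naive-derived array was the lower, yet both lay below every memory-derived stimulated array, and the 4 genes are close relatives whose probes may not tell them apart. Without naive-derived stimulated replicate 1, an array outside the comparison, all 4 passed (adjusted p = 0.0288 for Gzmg, 0.0163 for Gzmd, 0.0145 for Gzme and 0.0483 for Gzmf). Of the 21 alternatives, that omission among them, 3 gave a call for Gzmg, 3 for Gzmd, 4 for Gzme and 1 for Gzmf. The rest gave none. Of the 18 granule genes tested, Gzmk alone passed; the list's median was -0.12. Gzmb, the main granzyme of effectors, was at 12.85 and 12.83 against 12.75, 12.58 and 12.80 (0.14, interval -0.19 to 0.46), Gzma differed by 0.11 (interval -0.41 to 0.63), and Prf1, which encodes perforin, was at 8.84 and 8.12 against 9.84, 9.69 and 9.80 (-1.30 ± 0.41, adjusted p = 0.185).

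Genes that mark memory cells were mostly undecided. Of 25 memory and quiescence genes tested, Itgae was higher and Eomes lower, and the median was -0.13. Il7r, the interleukin 7 receptor (-0.57, adjusted p = 0.523), Ccr7, the lymph node homing receptor (-0.64, adjusted p = 0.152), and Cd27 (0.59, adjusted p = 0.256) did not pass. Id3, an inhibitor of E proteins, was at 2.73 and 3.15 against 1.24, 1.13 and 1.63 (1.61 ± 0.36, adjusted p = 0.0527), and with the replicate block it passed (0.00205). It passed in 10 of the 21 alternatives, that one among them, and not in the rest. The levels of 1.24 and 1.13 lay below the 1.54 level. Id2, a relative of Id3, was at 10.15 and 10.05 against 10.95, 10.73 and 10.84 (-0.74, adjusted p = 0.2), though a second probe set passed (-0.88, adjusted p = 0.0386) and another did not (0.25). The 2 genes thus leaned in opposite directions. Cd44, the marker used to enrich the precursors, was at 9.0 and 8.76 against 9.54, 9.81 and 9.78 (-0.83, adjusted p = 0.173), while of its further probe sets 1 passed (-1.16, adjusted p = 0.0434) and 1 did not (-1.04, adjusted p = 0.057).

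T cell receptor genes included the coreceptor itself. Cd8a, which encodes the CD8 alpha chain, was at 9.66 and 9.65 against 7.82, 7.87 and 7.81 (1.82 ± 0.21, adjusted p = 0.00121), and the naive-derived stimulated (8.87 to 9.33) and memory-derived unstimulated arrays (8.29 to 9.04) lay between these groups. Cd8b1, the beta chain, differed by 0.61 ± 0.12 (adjusted p = 0.023; 0.0569 with the replicate block, and 0.0695 to 0.158 when any 1 of the 5 arrays compared was left out). Txk, a Tec family kinase, was lower (-1.38 ± 0.28, adjusted p = 0.0332), a call that ended without naive-derived unstimulated replicate 2 (0.338), without memory-derived stimulated replicate 1, 2 or 3 (0.0791 to 0.11) and without memory-derived unstimulated replicate 1 or 2 (0.0503 and 0.0512). The other 17 of 20 receptor and proximal signalling genes did not pass, and the list's median was 0.30. Among genes of other cell types, chosen here after their values were seen, Ighm (2.16 ± 0.36, adjusted p = 0.0116) and the gamma chain segment Trgv4 (1.52 ± 0.21, adjusted p = 0.00392) were higher in the naive-derived cells. A marker list held Trgv4 under the unmatched symbol Tcrg-V4. The Ighm call was lost without naive-derived unstimulated replicate 1 or 2 and with the mean of its probe sets (adjusted p = 0.224). Of its 6 further probe sets 1 passed (2.88) and 5 did not (-0.37, -0.28, -0.13, -0.12 and 0.53). The Trgv4 call was lost without naive-derived unstimulated replicate 2. Of the class II and epithelial or stromal markers, H2-DMa (1.34, adjusted p = 0.00932; 0.124 without naive-derived unstimulated replicate 2) and Epcam (1.25, adjusted p = 0.00513; 0.0643 without replicate 1) passed, each with a further probe set that did not (-0.18 and 0.34).

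In the remaining lists at most 2 members passed in 1 direction. Socs2, a feedback inhibitor of cytokine signals (1.52), was the single call among 21 interleukin 2 receptor, STAT and SOCS genes, and Ikzf3, the Ikaros family factor Aiolos, was at 6.69 and 6.46 against 5.38, 5.45 and 5.64 (1.08 ± 0.14, adjusted p = 0.0023) and was the single one among 23 DNA methylation and chromatin genes. Tgfbr3, a coreceptor of TGF-beta, lay below the 1.54 level on all memory-derived stimulated arrays and was higher by at least 0.59 (adjusted p = 0.0357). Dok2, an adaptor that damps receptor signals, was lower (-1.12 ± 0.18, adjusted p = 0.00929; 0.0986 and 0.0668 without naive-derived unstimulated replicate 1 or 2). The Socs2 call was lost without naive-derived unstimulated replicate 1 or 2 (adjusted p = 0.0809 and 0.138) or memory-derived stimulated replicate 1 or 2 (0.0508 and 0.0558), and that of Tgfbr3 in 8 of the 11 single-array omissions (0.0531 to 0.306) and with the replicate block (0.0588). Among 20 lysosome genes, Ctss, which encodes the protease cathepsin S, was higher (1.05, adjusted p = 0.0158) and Npc1, a cholesterol exporter, lower (-1.12, adjusted p = 0.0229). Among 21 sterol and fatty acid synthesis genes, the elongase gene Elovl6 was higher (0.94, adjusted p = 0.0316; 0.0803 with the replicate block) and Idi1, an isomerase of sterol synthesis, lower (-0.92, adjusted p = 0.0206). Egln3, an oxygen-sensing hydroxylase, was the single call among 24 glycolysis and hypoxia genes (0.84, adjusted p = 0.0158), and Vim, the intermediate filament vimentin, was higher (1.41, adjusted p = 0.0433; 0.102 with the replicate block). Each of these 6 calls was lost in 4 to 7 of the 11 single-array omissions (adjusted p = 0.0509 to 0.33), that of naive-derived unstimulated replicate 1 among them. No member of the chemokine receptor (19 tested), cytosolic ribosomal protein (21), unfolded protein response (27), oxidative phosphorylation (29), fatty acid oxidation (19), G1 cell cycle (22) or GIMAP (8) lists passed by limma, and their members at an unadjusted p below 0.05 numbered 3, 2, 3, 0, 2, 5 and 2. Over the whole array the share that passed was 1.85%, and 1791 of 14795 genes had an unadjusted p below 0.05.

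**Figure D5:**
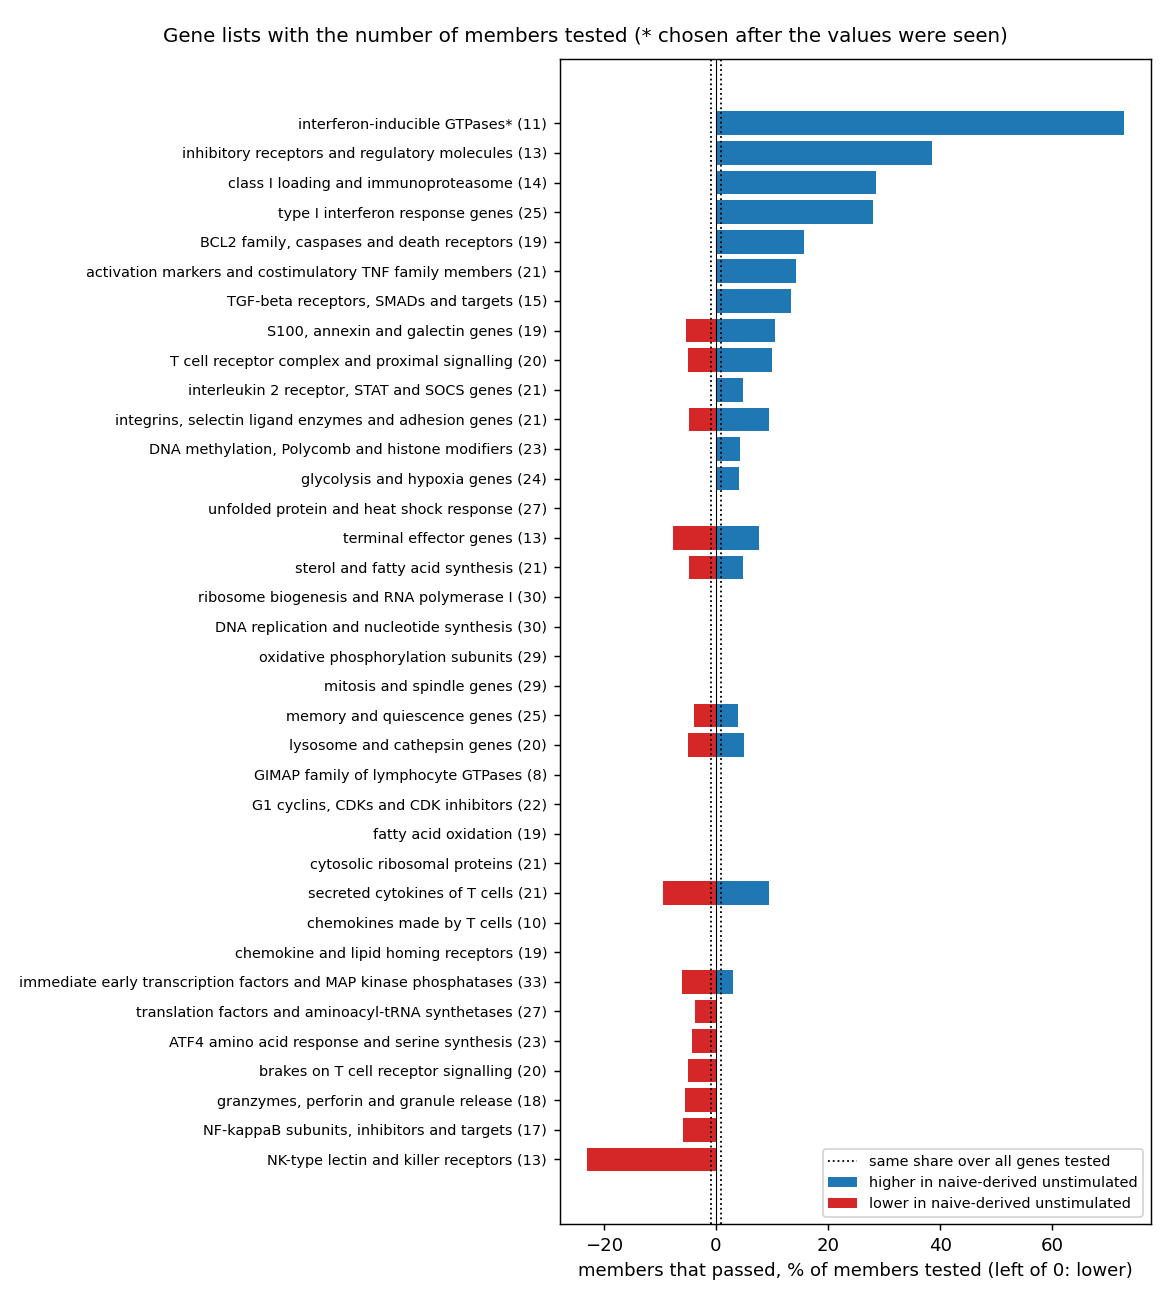
Bars give the percentage of tested members of each gene list that passed, to the right for higher and to the left for lower in naive-derived unstimulated cells, with the number of members tested in brackets. The dotted lines are the shares over all tested genes (0.98% higher, 0.865% lower). The GTPases (8 of 11), inhibitory receptors (5 of 13), class I loading (4 of 14) and type I interferon genes (7 of 25) stand farthest to the right and the NK-type receptors (3 of 13) farthest to the left.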

How the data were processed

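The deposited values are log10 probe set values of 11 Affymetrix arrays (45101 probe sets). Affymetrix Expression Console is named in the submitters' processing notes, and the summarization method and log base are not given in the sources used here. The authors had quantile normalized the arrays, since all held the same sorted values (0 to 4.56). The base was inferred from hybridization controls, whose mean rose from 1.38 at 1.5 pM to 2.58 at 25 pM, so folds rest on it.

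Values were multiplied by 3.32 to give log2 values. Probe sets with 1 symbol (34945; 932 had several, 9160 were not in the annotation table) were kept, with the highest-mean probe set per gene. A gene was tested if it exceeded the 40th percentile of all values (1.54) on 2 or more arrays. Means of 4 groups were fitted to 11 arrays with limma 3.58.1 (R 4.3.3; lmFit, eBayes; 7 residual and 3.86 prior degrees of freedom), so the spread is shared with arrays outside a comparison. P-values, two-sided, carry Benjamini-Hochberg adjustment over 14795 genes. Where a group lay below 1.54 on all its arrays, a difference is given as a bound. Of 43 genes named here that passed and have several probe sets tested, 29 had a further probe set that did not pass, and 0 of 50 had one that passed with the opposite sign. The code was tested on simulated data. Figures used matplotlib 3.10.9.

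Replicate numbers are experiment numbers in the labels, so they pair arrays. Deviations from group means correlated at -0.0716 to 0.112 within an experiment (15 pairs) and -0.131 to 0.112 between experiments (30 pairs). The main model has no replicate block, and a model with it is an alternative.

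The comparison, the 42 gene lists and the GTPase list were chosen with earlier results of these data known. Named genes are the 12 largest differences per direction among passing, non-overlapping genes above 1.54 in the higher group, up to 4 passing members per list with the lowest adjusted p, the 6 lowest adjusted p per direction among genes passing in both comparisons, and a set named whatever its result. Further genes were chosen after their values were seen: the GTPases other than Gbp2 and Iigp1, Btla, Ifih1, Oas1a, Bst2, Irf1, Gzmd to Gzmg, Il10, Il3, Ighm, Trgv4, Cd14, Cd68, Itgax and single list members that did not pass. Array number limits the precision.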

Additional observations from a re-analysis of the deposited data

Results flagged for a closer look

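For the genes named in the report, the naive-derived minus memory-derived difference was computed without and with the final stimulation. The genes below are those where these 2 differences differed by limma's interaction test, which 401 of 14795 genes passed. In brackets stand the difference without and the difference with the final stimulation, and the interaction, which is the latter minus the former on the log2 scale. It uses all 11 arrays, and no explanation of it was tested.

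Interferon-inducible GTPase genes had differences below 0 without the final stimulation and above 0 with it: Gbp6 (-0.39 and 1.47, interaction 1.86, adjusted p = 0.0066), Gbp7 (-1.02 and 0.70, interaction 1.72, adjusted p = 0.0242), Ifi47 (-0.94 and 1.21, interaction 2.15, adjusted p = 0.0146), Igtp (-0.41 and 1.07, interaction 1.48, adjusted p = 0.0242) and Irgm2 (-0.73 and 0.82, interaction 1.55, adjusted p = 0.0438). Other interferon-inducible genes also had an interaction above 0: Gbp2 (0.47 and 2.25, interaction 1.78, adjusted p = 0.0258), Irf1 (-0.85 and 0.62, interaction 1.47, adjusted p = 0.0365), Isg20 (-0.06 and 1.40, interaction 1.46, adjusted p = 0.017), Rtp4 (-0.64 and 0.85, interaction 1.49, adjusted p = 0.0226) and Zbp1 (0.62 and 1.41, interaction 0.79, adjusted p = 0.0469). So did the immunoproteasome genes Psmb9 (-0.66 and 0.78, interaction 1.44, adjusted p = 0.0258) and Psmb10 (-0.40 and 0.74, interaction 1.14, adjusted p = 0.0252). Ligands, a granzyme, a galectin and an adaptor had an interaction above 0 too: Ltb (-1.95 and 1.0, interaction 2.95, adjusted p = 0.0166), Fasl (-0.32 and 0.58, interaction 0.90, adjusted p = 0.0303), Gzmb (-0.10 and 0.76, interaction 0.86, adjusted p = 0.0497), Lgals9 (-0.78 and 0.62, interaction 1.40, adjusted p = 0.0276) and Dok2 (-2.64 and -1.51, interaction 1.13, adjusted p = 0.0411).

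Secreted cytokines had an interaction below 0, with naive-derived cells higher without the final stimulation: Il2 (7.87 and 3.07, interaction -4.80, adjusted p = 0.0411), Il3 (5.75 and -1.21, interaction -6.95, adjusted p = 0.0268), Il10 (6.94 and 3.09, interaction -3.85, adjusted p = 0.0432) and Tnf (2.84 and 0.07, interaction -2.77, adjusted p = 0.0301). An early response and an NF-kappaB inhibitor gene were Ier3 (0.25 and -2.19, interaction -2.43, adjusted p = 0.0336) and Nfkbid (2.20 and -0.23, interaction -2.43, adjusted p = 0.0272). Further interactions below 0 were those of OX40's gene and of a translation inhibitor, Tnfrsf4 (4.67 and 2.66, interaction -2.01, adjusted p = 0.0326) and Eif4ebp1 (1.41 and 0.08, interaction -1.33, adjusted p = 0.017). Lower in naive-derived cells in both states, and more so with the final stimulation, were Mpp7 (-0.68 and -2.69, interaction -2.0, adjusted p = 0.00504) and Myo6 (-1.38 and -2.45, interaction -1.07, adjusted p = 0.0396).

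For 3 genes a group lay below the 1.54 level on all its arrays, so the fitted interaction has no measured size. It was -3.55 for Il1a (adjusted p = 0.00693), whose difference was at least 2.03 without and -1.12 with the final stimulation, and with the memory-derived unstimulated group set to the level it was -3.16. For Cxcl2 it was -1.71 (adjusted p = 0.0252), with differences of at least 0.26 and -1.15, and -1.41 with that group at the level. For Pfpl it was -1.80 (adjusted p = 0.0199), with naive-derived cells lower by at least 0.04 without the final stimulation and a difference of -2.44 with it.

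No group has the 4 arrays needed to look for a single array far from the others.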

How the results depend on the processing

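Under the 21 alternatives the 273 genes kept their direction wherever they were tested, except that 267 of 268 did with the mean of a gene's probe sets. Of the 273, 60 passed under every alternative. The count was 264 with the replicate block, which pairs arrays by experiment, 289 with the mean of a gene's probe sets, 249 without a filter, 339 with the filter at the array median, 214 after centring on hybridization controls, 320 with log2(linear + 16), 235 with experiments 1 and 2 only, 285 with only the 5 arrays and 392 with a robust limma trend. Array weights gave 592 (285 higher, 307 lower), 296 genes passing in both comparisons with the same sign and 117 with opposite signs, and the latter were 65 with log2(linear + 16) and 74 with the robust trend. Over the single-array omissions the total ranged from 92 to 382, the higher from 56 to 190, the lower from 36 to 192, genes with the same sign in both comparisons from 56 to 196 and with opposite signs from 12 to 75. With the replicate block 223 of the 273 passed, and the blocked value stands beside each result it changed. Differences near 0 changed sign for Ccl3 (-0.25 with the replicate block) and Il2ra (0.077 with the mean of probe sets, and -0.40 to 0.23 over the omissions, above 0 without naive-derived unstimulated replicate 2). Type I interferon genes that passed numbered 11 with the robust trend and 12 with array weights, and NK-type receptors 5 with the block, the median filter and array weights. Why these settings differ was not tested. The 2 naive-derived unstimulated arrays and signal near background limit what these arrays can show.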
